A study of Mus musculus with 38 samples.

Results

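Of the 32103 regions of H3K27ac in the liver of mice fasted for 24 h, 3959 (12.3%) were also listed after 10 h of fasting and were not listed in fed liver. These regions, gained by 10 h and kept at 24 h, were chosen by overlap alone: each shared at least 1 base with a region of the 10 h list and none with a region of the fed list. They made up 60.7% of the 6526 regions of the 24 h list that were absent from the fed list, and the other 2567 were listed at 24 h only. Another 24405 regions of the 24 h list were present in the fed and 10 h lists as well. The lists used held 278566 regions in all.

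H3K27ac is acetylation of histone H3 at lysine 27, a mark of active promoters and enhancers. During fasting the pancreas releases glucagon, which raises cAMP in hepatocytes and leads to phosphorylation of CREB, the cAMP response element binding protein, which switches on genes of gluconeogenesis. The adrenal gland releases corticosterone in the same state, and corticosterone is bound by the glucocorticoid receptor (GR), a nuclear receptor that binds DNA once it holds its ligand. An antibody to pCREB recognises the phosphorylated form of CREB.

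All material came from C57BL/6 mice. Chromatin immunoprecipitation with sequencing was done on liver of mice that had free access to food or had fasted for 10 h or 24 h, and on hepatocytes that had been isolated by collagenase perfusion. The hepatocytes, the main cell type of the liver, had received 10 nM glucagon with 1.7 uM corticosterone for 1 h, 10 nM glucagon alone for 1 h, or no hormone. The liver lists covered H3K27ac (fed, fasted 10 h and fasted 24 h), CREB (fasted 24 h and fed) and pCREB (fasted 24 h and fed), with 3 samples in each group. The hepatocyte lists covered CREB (glucagon plus corticosterone, glucagon alone and untreated) and GR (glucagon plus corticosterone), with 2 samples in each group except untreated CREB, which had 1. The 38 samples formed 15 groups, of which 11 had a list, and 4 groups with 10 samples (C/EBPb and GR in fasted and fed liver) were not analysed here. GR was therefore seen only in hormone-treated hepatocytes in culture, and CREB in hepatocytes that were no longer in the liver.

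Each list gave 1 set of values per region and none per library, so no spread between replicates could be computed and no condition was tested against another. Shares of regions are given with 95% Wilson intervals, and differences between shares with 95% Newcombe intervals. Differences from a set weighted to like widths, given further on, have 95% normal intervals instead. All of these cover counting error only, and neighbouring regions are not independent, so the intervals are too narrow. A difference is described as beyond counting error where its interval left out 0. The lists had unequal lengths, with 11339 CREB sites in fasted liver and 13142 in fed liver, 6812 pCREB sites in fasted liver and 7669 in fed liver, and 11892 GR sites. The hepatocyte CREB lists held 42090 sites with glucagon plus corticosterone, 28229 with glucagon and 47596 without hormone. Each liver CREB or pCREB list names only 2 libraries, although its group has 3. A longer list covers more regions whatever the binding, and read depth is unknown. Positions are in build mm9, and what genes lie there was not analysed here.

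The gained and kept regions were narrow and of low density. Their median width was 464 bp (quartiles 342.5 and 627, range 252 to 3672), against 389 bp for the regions listed at 24 h only and 1033 bp for the regions in all 3 lists. The highest tag density of a region, a signal the authors give for each region, had a median of 8.80 in the gained and kept regions, against 14.5 over the whole 24 h list. The denser 50% of the 24 h list held 534 (13.5%) of the 3959 regions, and the densest 10% held 6. The lowest z-score given by the authors in the fed list was 10.9, and 43.8% of the gained and kept regions lay below it. That share was 61.1% for the regions listed at 24 h only and 8.32% for those in all 3 lists. For such regions, a gain of acetylation cannot be told apart from the higher lowest score of the fed list. These values come from the lists that chose the regions, and they are given without a test.

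The 10 h region was mostly the wider of the pair. This holds for the pairs only, since over the whole lists the median width was 699 bp at 10 h and 798 bp at 24 h. The 10 h list was also the longest, with 47777 regions and a lowest z-score of 7.72. The 24 h list held 32103 with a lowest z-score of 8.61, and the fed list 29917 with one of 10.9. The part of list length and lowest score in the widths and in the number of gained regions was not tested here. Of the 3959 regions, 2022 (51.1%) were covered over their whole length by 10 h regions, and 2938 (74.2%) were narrower than the 10 h region they met. The 10 h list touched them with 3844 regions, 209 of which held 2 or 3 of them. For 701 regions (17.7%), the 10 h region also reached a region of the fed list. There the 24 h region shared no base with the fed list, while the 10 h stretch joined it to a region present in fed liver. The other 3258 regions had a median width of 478 bp at 24 h, and their 10 h regions had one of 638.5 bp.

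The gained and kept regions lay near regions that fed liver already had. The median distance to the nearest region of the fed list was 3920 bp, and 14534 bp for the regions listed at 24 h only. Within 500 bp of a fed region lay 1078 (27.2%) of the gained and kept regions, against 14.8% of those listed at 24 h only. Within 50 kb lay 86.7%, against 69.7%. The 5 nearest had 0, 0, 1, 1 and 2 bases between them and a fed region, and on the other side of the rule the 5 regions with the smallest overlap shared 2, 5, 6, 7 and 7 bases with one. These 10 regions had densities of 5.98 to 33.9 on the near side and 5.98 to 16.1 on the far side.

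CREB in the liver was found at few of the gained and kept regions, and at about as many in fasted as in fed animals. A CREB site of the fasted list was present at 297 of 3959 (7.50%, 95% interval 6.72 to 8.36), where 14.8% of all regions of the 24 h list had one. A CREB site of the fed list was present at 300 (7.58%, interval 6.79 to 8.44), where 17.4% of the whole list had one. Both lists covered 225 regions (5.68%), the fasted list alone 72 (1.82%) and the fed list alone 75 (1.89%). Of the 32103 regions of the whole 24 h list, both covered 4079, the fasted list alone 666 and the fed list alone 1505.

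The phosphorylated form was rarer still. A pCREB site of the fasted list lay at 87 regions (2.20%, interval 1.79 to 2.70), where 3% of the 24 h list had one. A pCREB site of the fed list lay at 119 (3.01%, interval 2.52 to 3.59), where 5.22% of the 24 h list had one. Only the fasted list covered 11 regions, only the fed list 43, and both 76. Of the 130 regions at pCREB in either state, 124 (95.4%) also had a liver CREB site. Such overlaps of the liver lists are not given here for the whole 24 h list. In the 10 h list, 91.5% of all 3542 regions at pCREB in either state had a liver CREB site, so this overlap was common.

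CREB of isolated hepatocytes covered more of the regions. With glucagon plus corticosterone it lay at 1381 (34.9%, interval 33.4 to 36.4), where 55.4% of the 24 h list had a site. With glucagon alone it lay at 905 (22.9%, interval 21.6 to 24.2), where 43.2% of the list had one, and in untreated hepatocytes at 1195 (30.2%, interval 28.8 to 31.6), where 53.8% had one. With each list reduced to its 6812 densest sites, the shares were 11.0% for glucagon plus corticosterone, 8.39% for glucagon and 8.61% for untreated hepatocytes, while 16.9%, 17.5% and 19.2% of the whole 24 h list had such a site.

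GR was present at 299 of the gained and kept regions (7.55%, interval 6.77 to 8.42), where 7.95% of the 24 h list had a GR site. Among the 8 lists, GR was the one whose share in these regions came closest to that in the whole list. On the 6812 densest GR sites the share was 7.45%, against 7.82% of the whole list. At the same length, the fasted liver CREB list covered 7.10% of the regions, against 14.3% of the whole list. No site of any of the 8 lists was present at 2265 regions (57.2%), a site of a single list at 472 (11.9%), and sites of all 8 lists at 5. Such counts are not given here for the whole 24 h list, so they are not shown to be particular to the gained and kept regions.

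**Figure D1:**
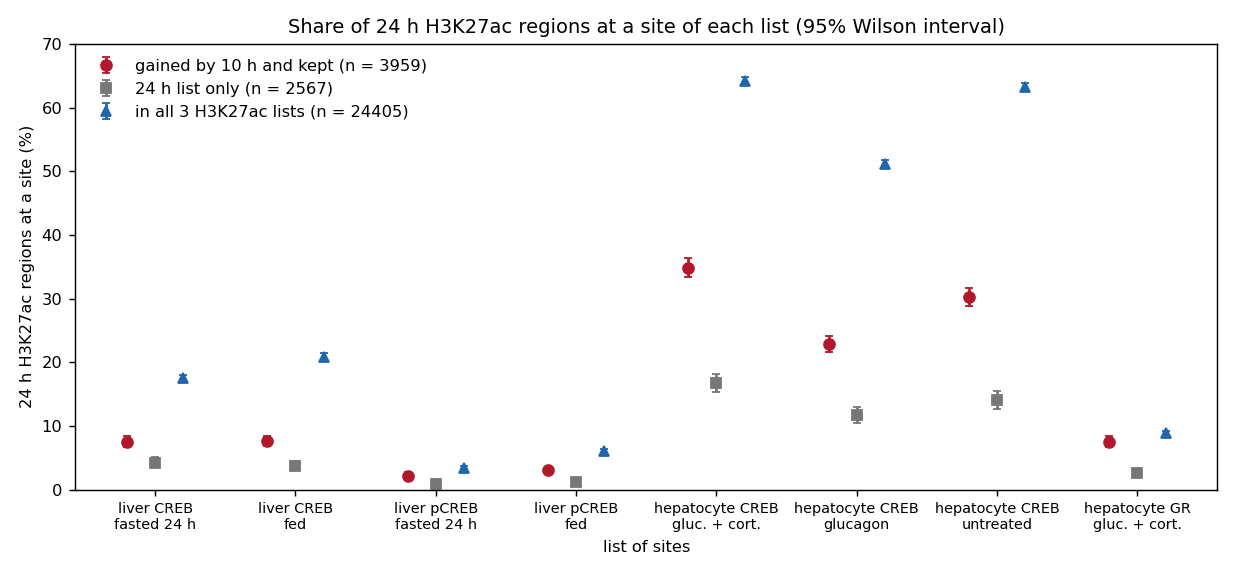
Share of 24 h H3K27ac regions (vertical axis, percent) that had a site of each of 8 lists (horizontal axis), for regions gained by 10 h and kept, regions listed at 24 h only and regions in all 3 H3K27ac lists; points are shares and bars 95% Wilson intervals, which cover counting error only. The gained and kept regions lie above the 24 h only regions at every list and below the regions in all 3 lists, with the smallest gap to the regions in all 3 lists, relative to their share, at GR (7.55% and 8.84%).

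Set against the regions that were listed at 24 h only, the gained and kept regions had more sites of every list. GR sites were present at 7.55% of the gained and kept regions and at 2.57% of the 24 h only regions, a difference of 4.98 percentage points (interval 3.94 to 6.00) and the largest ratio of the 8, 2.94. Fasted liver CREB differed by 3.30 points (interval 2.14 to 4.41) and hepatocyte CREB with glucagon plus corticosterone by 18.2 points (interval 16.1 to 20.2). All 8 differences were beyond counting error over all regions and under every alternative tried, but not within every bin of width or distance. Fasted liver CREB was beyond counting error in 3 of 6 width bins, with none above 500 bp, and its difference was -0.385 points (interval -4.03 to 2.76) for regions over 500 and up to 2000 bp from a fed region. Fasted liver pCREB passed in 1 width bin, and hepatocyte CREB with glucagon in 4, with -1.03 points (interval -12.8 to 8.47) above 800 bp. Within the same bins of width, the GR difference was beyond counting error in the 4 bins up to 600 bp, and it was 3.66 points (interval -0.934 to 7.35) over 600 and up to 800 bp and 4.62 points (interval -4.91 to 10.6) above 800 bp, where only 71 regions were listed at 24 h only.

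Set against the regions in all 3 lists, the gained and kept regions had fewer sites of every list. The difference was -9.97 points for CREB in fasted liver (interval -10.9 to -8.99) and -13.3 points for CREB in fed liver (interval -14.2 to -12.3). With the wider regions of all 3 lists weighted to the widths of the gained and kept ones, these were -3.52 (interval -4.53 to -2.51) and -6.42 points (interval -7.48 to -5.36). The weighting used 6 bins of width, of which the last, above 800 bp, had no upper limit. Widths were not matched within that bin, which reached 3672 bp in the gained and kept regions and 13415 bp in the others. Fasted liver CREB differed there by -12.8 points (interval -15.0 to -10.0). For GR the difference was -1.29 points (interval -2.15 to -0.357), and its direction changed with the processing. It was 2.35 points (interval 1.43 to 3.27) with weighted widths and 1.86 (interval 0.421 to 3.46) with the H3K27ac lists at one lowest z-score. It was -2.72 (interval -3.43 to -1.93) where at least 50% of the shorter region had to be shared, and -3.44 (interval -4.57 to -2.24) with regions within 50 kb counted once. Wherever regions within 50 kb were counted once, the densest of each group of neighbours was kept. This left 2837 of the 3959 gained and kept regions and 7458 of the 24405 in all 3 lists, so it also changed which regions were compared.

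At widths over 500 and up to 600 bp, GR sites were present at 7.93% of the gained and kept regions and at 4.87% of those in all 3 lists, a difference of 3.06 points (interval 0.870 to 5.66). Over 600 and up to 800 bp the shares were 10.1% and 5.36% (difference 4.69, interval 2.40 to 7.44), and above 800 bp 14.5% and 11.3% (difference 3.21, interval 0.389 to 6.53). At up to 500 bp the shares of the gained and kept regions were also the higher ones, by 0.922 to 1.92 points, with intervals that held 0. CREB of fasted liver did not follow this pattern. Its share was lower at the gained and kept regions in each of the 4 bins above 400 bp, for example 7.37% against 13.2% over 600 and up to 800 bp (difference -5.79, interval -7.93 to -3.20). In the 2 bins up to 400 bp its shares were 7.37% and 8.41% at the gained and kept regions, against 5.74% and 6.94%, with intervals of the differences that held 0. In the 3 bins above 500 bp, the gained and kept regions thus had the lower share for liver CREB and the higher share for GR.

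**Figure D2:**
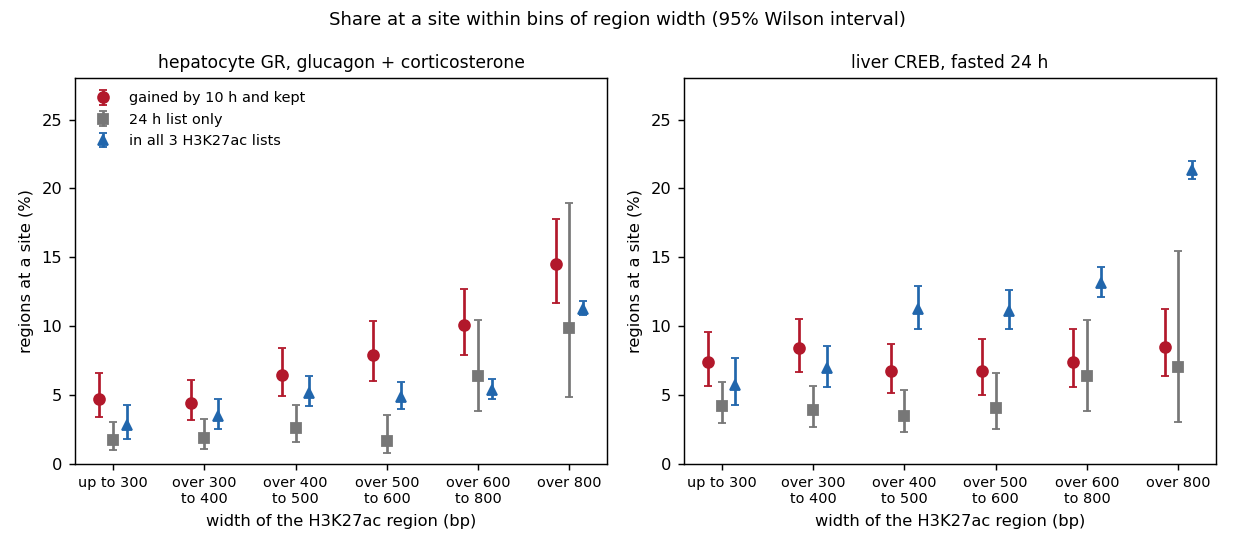
Share of 24 h H3K27ac regions at a GR site (left panel) and at a CREB site of fasted liver (right panel), in percent, within 6 bins of region width in bp, for regions gained by 10 h and kept, regions listed at 24 h only and regions in all 3 H3K27ac lists; bars are 95% Wilson intervals. Above 500 bp the GR shares of the gained and kept regions (7.93%, 10.1% and 14.5%) exceed those of the regions in all 3 lists (4.87%, 5.36% and 11.3%), whereas for CREB the order is the opposite one above 400 bp.

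Regions of higher density within the 24 h list more often had GR or hepatocyte CREB. Among the 989 densest of the gained and kept regions, with densities of 11.9 to 83.9 and a median width of 635 bp, 13.2% had a GR site (interval 11.3 to 15.5). The next 3 groups by density, of 990 regions each, had 6.46%, 5.25% and 5.25%. CREB with glucagon plus corticosterone was present at 45.0% of the densest group, and at 39.3%, 30.7% and 24.6% of the others. Liver CREB was also most frequent in the densest group. Its shares, in the same order, were 10.9%, 7.98%, 4.95% and 6.16% for the fasted list and 9.5%, 8.08%, 6.16% and 6.57% for the fed list. Liver pCREB did not fall in this way, with 3.34%, 3.13%, 2.12% and 3.43% for the fed list and 2.93%, 1.62%, 1.52% and 2.73% for the fasted list. The least dense group had a median width of 347 bp, so width and density were not separated here.

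GR sites were least frequent at the regions beside fed acetylation. The shares were 5.47% within 500 bp of a fed region, 6.29% up to 2000 bp, 10.04% up to 10 kb, 7.92% up to 50 kb and 8.73% farther off, so they did not rise steadily. Of the 1512 regions more than 10 kb from a fed region, 8.20% had a GR site, against 5.47% of the 1078 regions within 500 bp of one, a difference of 2.73 points (interval 0.739 to 4.65). For CREB in fasted liver the shares were 9.13% and 6.96% (difference 2.17, interval 0.0172 to 4.24). The regions within 500 bp were also narrower, with a median width of 420 bp against 479 to 489 bp in the 4 bins farther off, and the part of width in these differences was not tested. The intervals of the other 6 lists held 0, among them hepatocyte CREB with glucagon plus corticosterone at 37.8% and 35.1% (difference 2.70, interval -1.07 to 6.43).

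The 299 regions with a GR site nearly all had CREB as well. Of these, 281 (94.0%) had a CREB site of at least 1 hepatocyte list, against 36.3% of the 3660 regions without GR. Over the whole 24 h list the share was as high, at 94.2% of the 2551 regions with GR. With glucagon plus corticosterone, the treatment in which GR was mapped, CREB was listed at 90.3% of the regions with GR, against 30.4% of those without. In untreated hepatocytes, which had received no corticosterone, CREB was listed at 74.2% and 26.6%. For liver CREB the shares were 25.8% and 6.01% in the fasted state, a difference of 19.7 points (interval 15.0 to 25.0), and 17.4% and 6.78% in the fed state, a difference of 10.6 points (interval 6.65 to 15.4). Of all 24 h regions with GR, more had liver CREB, 42.5% in the fasted and 38.4% in the fed state. More of them also had CREB of untreated hepatocytes, 86.8%, while 92.0% had CREB with glucagon plus corticosterone. Regions with GR and no CREB or pCREB site of any list numbered 10.

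The share of regions with GR varied with the pattern of hepatocyte CREB lists, although most regions of every pattern had no GR site. Of the 744 regions listed for CREB in all 3 treatments, 26.6% had a GR site (interval 23.6 to 29.9), and of all regions of the 24 h list with that pattern 16.5% had one. The 99 regions listed for CREB in both hormone treatments and not in untreated hepatocytes had GR at 27.3% (interval 19.5 to 36.8), against 12.9% in the whole 24 h list. For the 285 regions listed for CREB with glucagon plus corticosterone alone, the shares were 10.9% and 4.92%. Of the 166 regions listed in untreated hepatocytes alone, 3.61% had GR (interval 1.67 to 7.66), against 1.63% in the whole list. Of the 2350 regions in no hepatocyte CREB list, 0.766% had GR (interval 0.485 to 1.21), against 1.21% in the whole list. With glucagon alone (30 regions) the shares were 3.33% (interval 0.591 to 16.7) and 7.48%. For the 253 regions listed in untreated hepatocytes and with glucagon plus corticosterone, but not with glucagon, they were 5.53% (interval 3.33 to 9.07) and 3.65%. For the 32 listed in untreated hepatocytes and with glucagon only, they were 12.5% (interval 4.97 to 28.1) and 4.15%. No hepatocyte CREB at all was listed at 59.4% of the gained and kept regions, against 38.0% of the 24 h list. All 3 treatments were listed at 18.8% against 39.2%, and untreated alone at 4.19% against 4.77%. Untreated with glucagon plus corticosterone was at 6.39% against 8.63%, and untreated with glucagon at 0.808% against 1.20%. Patterns with CREB only under hormone went the other way. Both hormone treatments were at 2.50% against 2.12%, glucagon plus corticosterone alone at 7.20% against 5.38%, and glucagon alone at 0.758% against 0.667%.

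**Figure D3:**
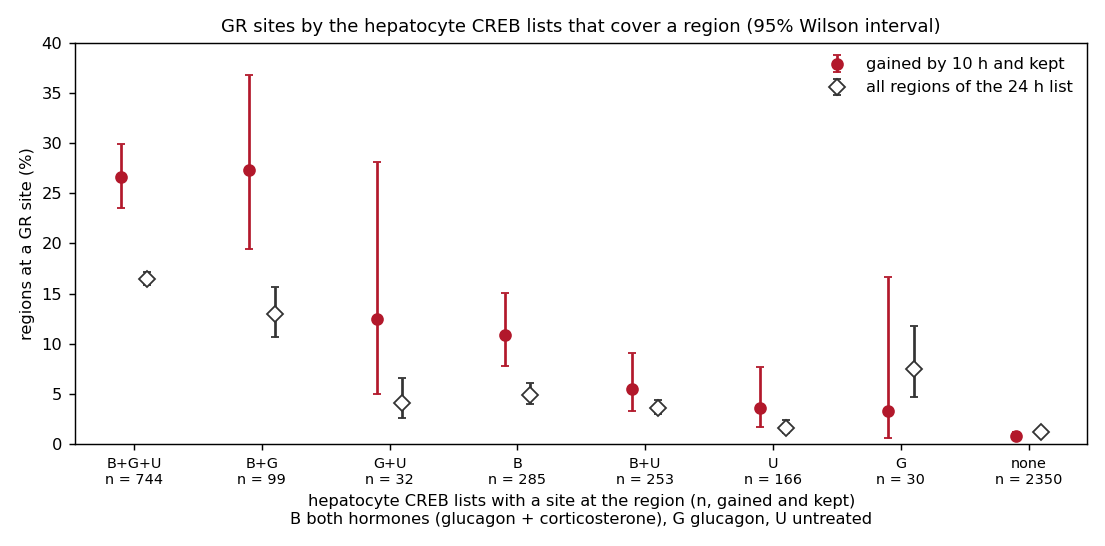
Share of regions at a GR site (vertical axis, percent) by the hepatocyte CREB lists that had a site at the region (horizontal axis, with the number of gained and kept regions; B is glucagon plus corticosterone, G glucagon, U untreated), for the gained and kept regions and all regions of the 24 h list, of which the gained and kept ones are a part; bars are 95% Wilson intervals. GR is present at 26.6% and 27.3% of the gained and kept regions with CREB in both hormone treatments, and at 0.766% of those with no hepatocyte CREB.

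Where CREB was listed in fasted liver only, GR was frequent. Of the 72 regions at a CREB site of the fasted list and none of the fed list, 33 (45.8%, interval 34.8 to 57.3) had a GR site. Of the 75 regions at a CREB site of the fed list only, 8 (10.7%, interval 5.51 to 19.7) had one, a difference of 35.2 points (interval 21.0 to 47.7). Regions at CREB in both states had GR at 19.6%, and regions at neither at 5.97%. The hepatocyte CREB lists showed no such difference: with glucagon plus corticosterone, CREB was listed at 75.0% of the fasted only and 74.7% of the fed only regions, and the interval of the difference reached from -13.6 to 14.2 points. The regions in all 3 H3K27ac lists had the same order for GR, with 38.1% at fasted only and 9.68% at fed only CREB (difference 28.4, interval 24.1 to 32.8). Whether the 2 differences themselves differ was not tested, so the relation is not shown to be particular to gained acetylation.

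**Figure D4:**
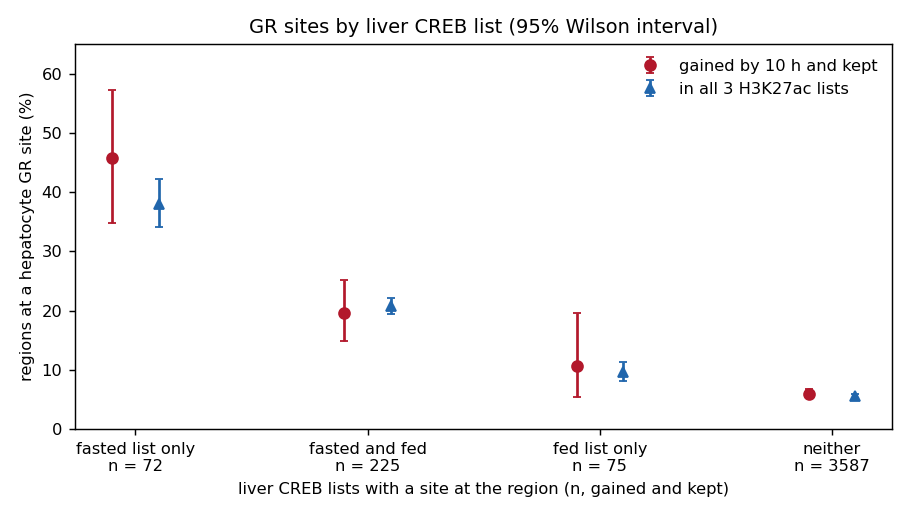
Share of regions at a GR site of hepatocytes (vertical axis, percent) by the liver CREB lists with a site at the region (horizontal axis, with the number of gained and kept regions), for the gained and kept regions and the regions in all 3 H3K27ac lists; bars are 95% Wilson intervals. GR is at 45.8% of the 72 gained and kept regions with CREB in fasted liver only and at 10.7% of the 75 with CREB in fed liver only.

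Many of the sites were centred outside the acetylated stretch. The 299 regions met 280 GR sites, 34.6% of which (interval 29.3 to 40.4) belonged to the densest 10% of the GR list. For GR sites at any region of the 24 h list that share was 30.2%, within the interval. The midpoint of the GR site lay inside the gained and kept region in 42.6% of pairs, and in 75.2% of pairs over the whole 24 h list. For regions of at most 800 bp the shares were 28.4% (interval 22.9 to 34.5) in the gained and kept regions and 48.3% (interval 43.7 to 53.0) in the regions present in all 3 lists. Widths still differed under that limit. Up to 300 bp wide were 678 gained and kept regions and 714 in all 3 lists, but over 600 and up to 800 bp 597 and 3860. The GR sites met by the gained and kept regions had a median width of 636 bp, and these regions one of 464 bp. The part of width in these shares was not tested. The median distance from the middle of the site to the middle of the region was 305.5 bp for GR and 282 bp for CREB of fasted liver.

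The question of which 10 h gains were kept can be put from the 10 h list, of which 3434 regions were absent in fed liver and present at 24 h, and 18890 were listed at 10 h only. The kept regions were the denser ones, with a median density of 9.61 against 5.96 and a median z-score of 13.82 against 10.45. The part of density in the differences between kept and 10 h only regions was not tested. Hepatocyte CREB was more frequent at the kept regions. With glucagon plus corticosterone it was at 34.4% of the kept and 20.2% of the 10 h only regions (difference 14.1 points, interval 12.5 to 15.8), where 43.6% of the 10 h list had a site. With glucagon the shares were 23.5% and 13.1%, where 33.2% of the 10 h list had a site, and in untreated hepatocytes 30.3% and 18.0%, where 42% had one. With the 10 h only regions weighted to like widths, the 3 differences were 7.74 points (interval 5.93 to 9.55), 6.02 (interval 4.41 to 7.63) and 6.54 (interval 4.79 to 8.29), against 14.1, 10.4 and 12.3 unweighted. GR was at 7.63% and 5.81% (difference 1.82, interval 0.914 to 2.81), where 7.38% of the 10 h list had a site. Weighted in the same way, the GR difference was -0.471 points (interval -1.52 to 0.581), and its interval held 0.

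Liver pCREB went the other way. The fasted pCREB list covered 2.36% of the kept and 7.78% of the 10 h only regions (difference -5.42 points, interval -6.02 to -4.74), where 4.98% of the 10 h list had a site. The fed pCREB list covered 3.23% and 8.32% (difference -5.08, interval -5.76 to -4.33), where 6.59% had a site. These 2 differences kept their direction and lay beyond counting error under every alternative tried, but their size did not hold. With the H3K27ac lists at equal length they were -2.00 points for the fasted and -1.97 for the fed list, and at one lowest z-score -9.70 and -9.64. CREB was also less frequent at the kept regions, at 7.89% against 10.6% for the fasted list and 7.86% against 11.1% for the fed list, where 13.6% and 15.7% of the 10 h list had a site. Those CREB differences, -2.73 and -3.28 points, turned positive when only the denser 50% of each list was used (0.959 points for fasted and 0.520 for fed) and when regions within 50 kb of each other were counted once (0.477 and 0.0638).

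Kept and 10 h only regions at liver pCREB differed in hepatocyte CREB. Of the 121 kept 10 h regions at a pCREB site of either liver list, 65.3% (interval 56.5 to 73.2) also had hepatocyte CREB, against 27.7% (interval 25.7 to 29.7) of the 1884 10 h only regions at pCREB, and 53.4% of all 3542 regions of the 10 h list at pCREB. Their median widths differed as well, 581 bp for the kept and 445 bp for the 10 h only ones, and the part of width in this difference was not tested. GR was at 19.8% of the kept and 26.0% of the 10 h only regions, and both lists of liver pCREB were at 58.7% and 61.4%.

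By position, the gained and kept regions were spread over all 21 chromosomes in the lists, from 7.92% of the 24 h regions of chromosome Y (8 regions) to 14.0% of those of chromosome 5 (285 regions). Neighbouring ones lay a median of 222536 bases apart. With regions at most 50 kb apart taken as a run, 2082 stood alone and 1877 formed 755 runs of 2 to 9. GR was at 9.75% of the regions in runs (interval 8.49 to 11.2) and at 5.57% of those alone (interval 4.67 to 6.64), while fasted liver CREB was at 7.78% and 7.25%. A GR site can span 2 neighbours of a run, so these shares count some sites more than once.

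The run with the most gained and kept regions and no fed region between them was on chromosome 11, with 6 regions at chr11:11730841-11745738 and no other region of the 24 h list among them. Their densities, in order of position, were 14.8, 24.6, 9.56, 11.9, 14.8 and 34.9, and the nearest fed region was 21323 bases away. At its far end a GR site of hepatocytes, chr11:11744181-11745158, had a density of 194.9, the fourth highest (rank 4) of the 11892 GR sites, and it reached both chr11:11743892-11744447 and chr11:11744588-11745738. Fasted liver CREB was listed there at chr11:11744277-11744990, with a density of 31.4 and rank 1490 of its list, and neither fed liver CREB nor pCREB of either state was. CREB of hepatocytes at that spot had rank 124 with glucagon plus corticosterone (density 365.6), rank 1004 with glucagon (density 73.7) and rank 8093 without hormone (density 21.3). Densities are not on a common scale between lists, so only the ranks, from lists of unequal length, are set side by side. The first region of the run, chr11:11730841-11731749, had CREB in both hormone treatments and not in untreated hepatocytes, and the 3 between had no site of any list.

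**Figure D5:**
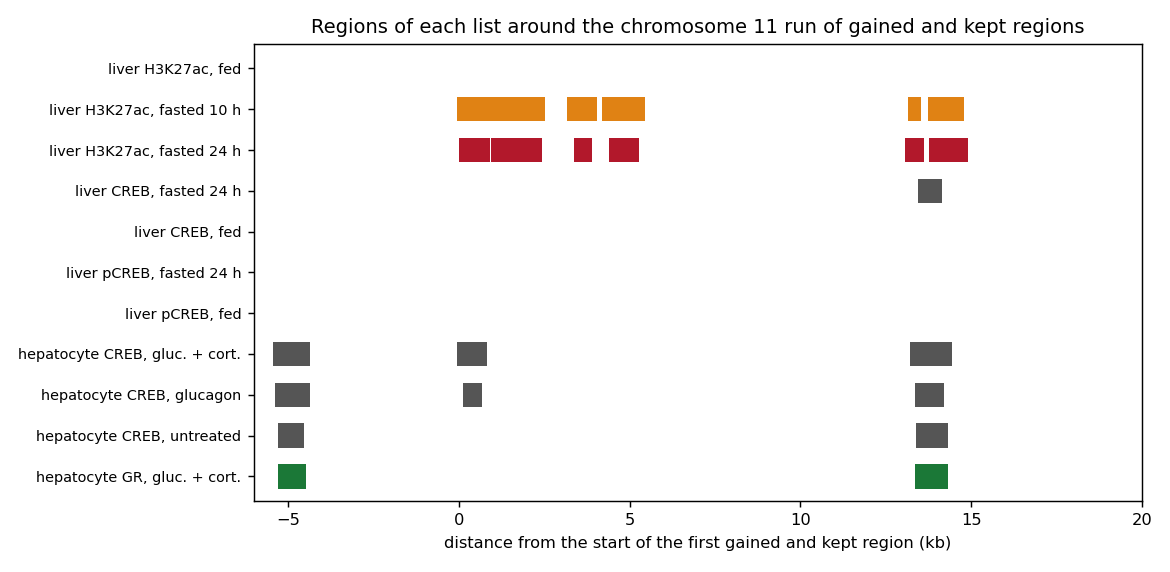
Regions of each of 11 lists (rows) around the run of 6 gained and kept H3K27ac regions on chromosome 11, drawn to scale as distance in kb from the start of the first of them (horizontal axis); each block is 1 region of a list, the first 2 regions at 24 h are parted by a narrow gap, and rows without blocks have no region there. The fed row is empty, and the GR site and the CREB site of fasted liver lie over the last 2 regions, 13.3 to 14.3 kb from the start; another GR site, at -5.29 to -4.48 kb, has hepatocyte CREB of all 3 treatments and no H3K27ac region.

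The run with the most regions of all was on chromosome 3. Its 9 regions at chr3:25424632-25446051 had low densities, 5.50 to 8.85, with 4 fed regions in the same stretch. Fasted liver CREB was at 6 of them, GR at 3 and hepatocyte CREB with glucagon plus corticosterone at none. Fed liver CREB was listed in the run as well. It lay at chr3:25424632-25425310, chr3:25427931-25428371 and chr3:25439154-25439469, which had no fasted CREB site. It also lay at chr3:25427173-25427850, chr3:25439911-25440162 and chr3:25440443-25440892, which had CREB in both states. Some regions of the run had liver pCREB too.

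Among the 10 densest regions, 3 lay on chromosome Y with densities of 72.1 to 83.9 but z-scores of 9.44 to 12.6, and 1, chr11:3060775-3061060, had a density of 42.7 at a z-score of 11.1. All 4 were at most 1541 bases from a fed region. The densest one elsewhere was chr15:57852863-57854742 (density 61.1, z-score 107), which also had the highest z-score of all 3959. It was 1880 bp wide at 24 h and met a 10 h region of 1179 bp, and it had CREB in fasted but not fed liver and in all 3 hepatocyte treatments, without GR. The next was chr17:28659520-28660962 (density 50.3), with GR, CREB in both liver states and CREB in all 3 hepatocyte treatments. At chr1:135244480-135245349 (density 44.5) all 8 lists had a site, and its GR site ranked 136 in the GR list. At chr19:10195838-10198039 (density 42.6) CREB was listed in fasted but not fed liver and in all 3 hepatocyte treatments. The remaining 2, chr2:172995175-172996690 (density 49.6) and chr8:10891007-10892577 (density 41.4), had no site of any list. Ranked by z-score instead, a choice made after the values were seen, the leading 10 held none on chromosome Y, and 5 of them had CREB in fasted liver, 1 CREB in fed liver and 4 GR.

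GR and fasted liver CREB met at 77 regions. The third densest of these, chr6:108041537-108044626, was 3090 bp wide, had CREB in fasted and not in fed liver, and held the GR site of rank 131. Of the 10 regions with GR and no CREB or pCREB, the densest was chr12:84884514-84886657 (density 29.6), and the GR sites of the 5 densest ranked between 1693 and 3518. The 99 regions with CREB in both hormone treatments and not in untreated hepatocytes were led by chr16:94914447-94916619 (density 28.3), 121370 bases from the nearest fed region. The second of them, chr2:65063547-65065980 (density 24.6), had CREB in fasted and not in fed liver, and its GR site ranked 37. The third, chr10:59432249-59433844 (density 23.0), had the same combination of liver and hepatocyte CREB, with a GR site of rank 143.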

How the data were processed

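Of 13 deposited peak lists, 11 were matched to a group by the library numbers in their names, and 2 lists with 8 columns of values, which match no sample given, were not used. Per the submitters' processing notes, CASAVA 1.8 and build mm9 were used. By their names, the 3 H3K27ac lists hold hotspot regions of pooled libraries, and each factor list names 2 libraries, except that of untreated hepatocytes, which names its 1 library against itself. The aligner and the settings of the caller: not given in the sources used here. With every region the authors deposited a tag density, a signal used only within its list. The authors also deposited a score for every region, the z of their caller, per the file headers. A p-value deposited by the authors was not used.

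Regions were called shared with at least 1 base in common, ends included. For 24 pairs of shares, differences were computed with Newcombe intervals. Width is end minus start plus 1. Named regions were the densest overall and of each combination of lists. The members, lists and tests were chosen with earlier results of these data known. Overlap and interval code was tested on simulated data. The tools were Python 3.11.15 with matplotlib 3.10.9, SciPy 1.17.1, pandas 2.3.3 and numpy 2.4.6. Gene names, gene lists, motifs and sequences were not analysed here, since the gene tables at hand are of another build.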

Additional observations from a re-analysis of the deposited data

How the results depend on the processing

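The 24 differences of shares were recomputed under up to 11 alternatives, 256 values in all, and 241 kept their direction and their side of 0. All 88 values against the regions listed at 24 h only did. The number of regions gained and kept was 2473 with the 3 H3K27ac lists at equal length by density and 1823 with them at one lowest z-score. The GR difference from the regions in all 3 lists was -0.130 points with a gap of up to 500 bp and -0.197 at equal length, both with intervals that held 0. It was -2.72 with at least 50% of the shorter region shared and -3.44 with regions within 50 kb counted once, both below 0 by their intervals. It was 1.86 points at one lowest z-score, 0.891 in 500 bp windows, 2.79 among regions of 400 to 800 bp and 2.35 with weighted widths, all above 0 by their intervals. For kept against 10 h only regions, fasted liver CREB was 1.13 at equal length, 0.477 with regions within 50 kb counted once and 0.959 on the denser 50% of each list, and fed liver CREB was -0.206, 0.0638 and 0.520. Only the 0.959 lay above 0 by its interval. The GR difference there was 0.629 with the gap, 0.118 at 400 to 800 bp and -0.471 with weighted widths, all with intervals that held 0. Shares with each factor list at 6812 sites were 6.47% for fed liver CREB, 11.0% for hepatocyte CREB with glucagon plus corticosterone, 8.39% with glucagon and 8.61% untreated. The cause of these shifts was not tested. The weighted widths and the removal of regions whose 10 h region reached a fed one were chosen after seeing the data.

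No paired analysis was possible because the lists hold 1 value per region and no column per library, and for the same reason no replicate was left out. The depth behind each list is unknown, and absence from a list is not absence of the mark.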
